A study of Populus trichocarpa with 378 samples.

Results

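The genes described here are the 150 that varied most closely with C4H2 (Potri.019G130700) and CCoAOMT1 (Potri.009G099800), 2 monolignol genes used as baits, in wood-forming tissue of Populus trichocarpa. They were chosen by rank. Counts were scaled by TMM, a trimmed mean of log ratios that makes libraries comparable, and turned into log2 CPM (counts scaled to a common library total, prior count 2). The mean of each construct within its planting batch was subtracted from its libraries. The 19109 genes with a mean of 5 CPM or more, of 41334 in the table, were then ranked by the mean of their Pearson correlations with the baits over 378 libraries, and the 150 highest, the baits left out, are called the members.

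Lignin is the phenolic polymer that stiffens the walls of wood cells, and it is built from monolignols, which are made from phenylalanine by a series of enzymes. C4H, cinnamate 4-hydroxylase, acts near the start of this series, and CCoAOMT, caffeoyl-CoA O-methyltransferase, adds a methyl group to a later, CoA-bound intermediate. Genes of this pathway are known to be strongly expressed in developing xylem, where secondary walls are laid down.

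Stem-differentiating xylem was scraped from debarked stems of greenhouse trees harvested at 6 months, all of the genotype Nisqually-1. The libraries comprised 18 of wildtype, 3 in each of 6 planting batches (labelled NSF1 to NSF6), and 360 of transgenics carrying 1 of 45 constructs within those batches. The labels give every construct a xylem-specific promoter of a 4CL gene, which the study names as 4CL3 for its monolignol constructs. The constructs were directed at monolignol genes (PAL, C4H, 4CL, HCT, C3H, CCoAOMT, CCR, CAld5H, AldOMT and CAD families) or at regulators (LIM, KNOX and MYB genes). Knockdown constructs begin with a or i and the constructs that overexpress CAD2 with o, and o65 and o66 also carry a CAD1 knockdown. A library name gives construct, line and pool, so that i19-7-2 is pool 2 of line 7 of construct i19. Trees of 1 line, propagated clonally, were pooled for each library, so pools of a line are not separate transformants and the p-values below measure the spread between pools. Total counts ranged from 2.12 to 93.5 M per library with a median of 15.7 M.

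The count table lists identifiers without names, and none was found in the reference table used for names. Names are therefore given only to the baits, and no role is given to a member. The labels and the bait names could be checked against each other in constructs aimed at a bait, and those libraries are described before the tests.

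The mean correlation of the members with the baits ranged from 0.819 to 0.861 with a median of 0.832, against a median of 0.0467 over all ranked genes. These values chose the members and are given as a description. The highest were Potri.014G114700 at 0.861 and Potri.002G099200 at 0.859, followed by Potri.009G011100 at 0.854. The limit fell within a dense range. The last member, Potri.015G082700, had 0.8191 and the first gene outside, Potri.010G252400, 0.8189, and 308 genes lay above 0.8.

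C4H2 was the nearer bait for 149 of the 150 members. The median correlation of the members with C4H2 was 0.902 (range 0.734 to 0.956), and with CCoAOMT1 it was 0.766 (range 0.711 to 0.960). The baits correlated with each other at 0.723. The exception was Potri.001G304800, ranked 13, which had 0.960 with CCoAOMT1 and 0.734 with C4H2. Without the 25 libraries of i69, a22 and i24, 3 constructs directed at a bait, the baits correlated at 0.918 and the order of the medians turned around, with 0.937 for CCoAOMT1 and 0.917 for C4H2. In that ranking 136 of the 150 were still chosen.

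**Figure D1:**
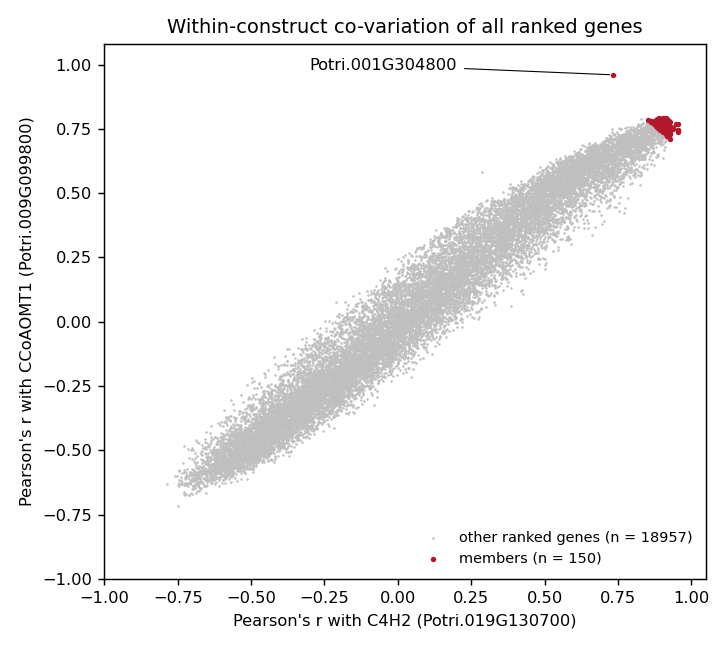
Pearson's r with C4H2 (horizontal) and with CCoAOMT1 (vertical) of every ranked gene other than the baits, each a point, with the 150 members in red. The members lie at the upper end of a single cloud, and Potri.001G304800 alone lies above it, at 0.734 and 0.960.

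The members were abundant transcripts. Their median level was 263 CPM (quartiles 107 and 492, highest 6265), against 21.5 CPM for all ranked genes. A mean of 100 CPM or more was reached by 116 of the 150 members and by 9.39% of ranked genes. CPM is not corrected for transcript length, so these levels are not compared gene by gene. In the median wildtype library the members held 8.61% of all counts. Over all libraries this share ran from 0.276 to 11.7%. The member with the most counts was Potri.002G111900, at 6356 CPM ± 2241 in wildtype (SD, n = 18).

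The members also varied with one another. Over their 11175 pairs the median correlation was 0.936 (range 0.705 to 0.9999). Only 9 pairs exceeded 0.99, and some of these had nearly equal levels. Potri.002G189000 and Potri.002G189200 correlated at 0.9999 with means of 4248 and 4100 CPM. Potri.T070100 and Potri.019G038200 correlated at 0.9998 with means of 1868 and 1891 CPM. How the counting treated reads that match more than 1 place is not given in the sources used here, so the members of such pairs are uncertain as separate measurements. By the chromosome number in their identifiers, the members were spread over all 19 chromosomes, from 1 of 670 ranked genes on chromosome 12 to 16 of 1374 on chromosome 2, with 3 on scaffolds.

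The set moved mainly in a small number of libraries. The deviation of a library was taken as the median over the 150 members of its difference from the construct mean. It lay within 0.5 on the log2 scale in 308 of the 378 libraries. In 7 libraries it was over 2 below the construct mean, which is a level under 0.25 of that mean. The lowest was i21-8-2, a CCoAOMT3 knockdown pool, at -4.05. The 3 pools of line 7 of i19, directed at HCT1 and HCT6, followed at -3.81, -3.58 and -2.81. The others were i15-3-2 at -2.84, a43-13-1 at -2.51 and a13-6-1 at -2.14. At least 149 of the 150 members were more than 1 log2 unit below their construct mean in each of the 7.

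These 7 libraries differed from their constructs in other genes too. The root mean square deviation of all ranked genes was 0.924 to 1.48 in them, against a median of 0.329 over libraries. The totals were 8.21 to 25.6 M counts, except for a43-13-1, which had 2.12 M and 20.1% of its counts in 10 genes. The part of depth and of tissue state in the low levels was not tested. In tissue of mixed cell types, fewer cells of a type and less RNA per cell cannot be told apart.

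The ranking leaned on these libraries. Constructs i15, i19 and i21 held 62.1% of the summed squared deviation of the set, and i19 alone 34.1%. Without the 7 libraries, 118 of the 150 members would still have been chosen and their median mean correlation was 0.683. Without line 7 of i19 it was 0.777, with 138 members shared. Batch by batch, the median mean correlation of the members was 0.787, 0.839, 0.617, 0.912, 0.905 and 0.808 for batches 1 to 6, against at most 0.0781 for all ranked genes. All 150 members were among the 1000 highest genes of batches 4 and 5, and 112 were in batch 3. The batches are parts of the libraries that chose the members, so these values are a description.

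**Figure D2:**
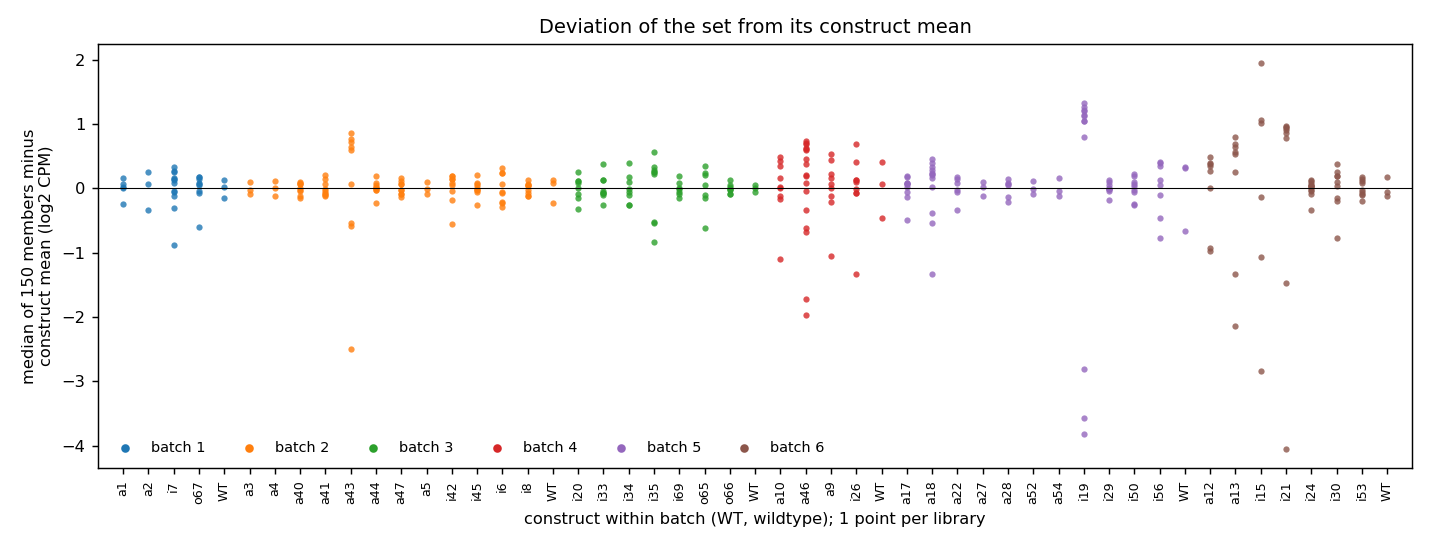
Deviation of each library from its construct mean (vertical, log2 CPM, median over the 150 members) by construct within batch (horizontal), with 1 point per library and colours for batches. Most points lie within 0.5 of zero, and the 7 points under -2 belong to i19, i21, i15, a43 and a13.

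The low levels followed lines as well as pools. Differences between lines held 69.2% of the squared deviations of the set median within constructs. Gene by gene, the median share was 67.9% over the members and 48.8% over all ranked genes. These shares come from the deviations that chose the members and are given as a description. The set median of a line lay within 0.5 log2 of the wildtype of its batch in 118 of 136 lines. In 10 lines at least 75 members were more than 1 log2 unit below wildtype, and the set median was above wildtype in 26 lines, by at most 0.29.

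The i19 construct showed this most clearly. Potri.014G114700, the member closest to the baits, was at 141, 96.5 and 121 CPM in the pools of line 7. Its 9 other i19 pools held 1673 to 2858 CPM, and the wildtype pools of the batch 3098, 1643 and 3175. Line 7 therefore lay apart from its sister lines, which overlapped wildtype. C4H2 in line 7 was at 73.2, 63.5 and 65.1 CPM, against 963.5 to 1512 in the other lines. The median of the set in line 7 was at -4.36 against wildtype on the log2 scale, and every member was lower by more than 1.

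In other lines the pools of a line disagreed. Line 8 of i21 had a pool with a set median of 8.50 CPM and another with 245 CPM. In the same line Potri.002G099200 was at 659 and 41.2 CPM. Line 13 of a43, directed at MYB167, had Potri.002G099200 at 168, 703 and 639 CPM, below the 834 to 1195 CPM of the other a43 lines in all 3 pools. All 3 lines of i15, directed at 4CL3 and 4CL5, were low, with set medians at -1.53, -1.13 and -3.84 on the log2 scale against wildtype. The remaining low lines were i35-7 (-1.37), a46-10 (-1.50), i26-10 (-1.07) and a13-6 (-2.33).

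In pools of i24, i69 and a22, constructs directed at a bait, the median member stayed near wildtype where that bait was low. In i24, directed at CCoAOMT1 and CCoAOMT2, CCoAOMT1 was at 111 to 139 CPM in 8 of 12 pools, against 2238, 1878 and 1793 CPM in wildtype. The other 4 pools, the 3 of line 6 and i24-1-1, had 1460 to 1964 CPM. Pool i24-1-1 stood apart from the other pools of line 1, which had 124 and 126 CPM. The set median was 225 to 304 CPM over all 12 pools and 331, 281 and 264 CPM in wildtype. The groups overlapped, although CCoAOMT1 was over 10 times lower in most of the pools.

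**Figure D3:**
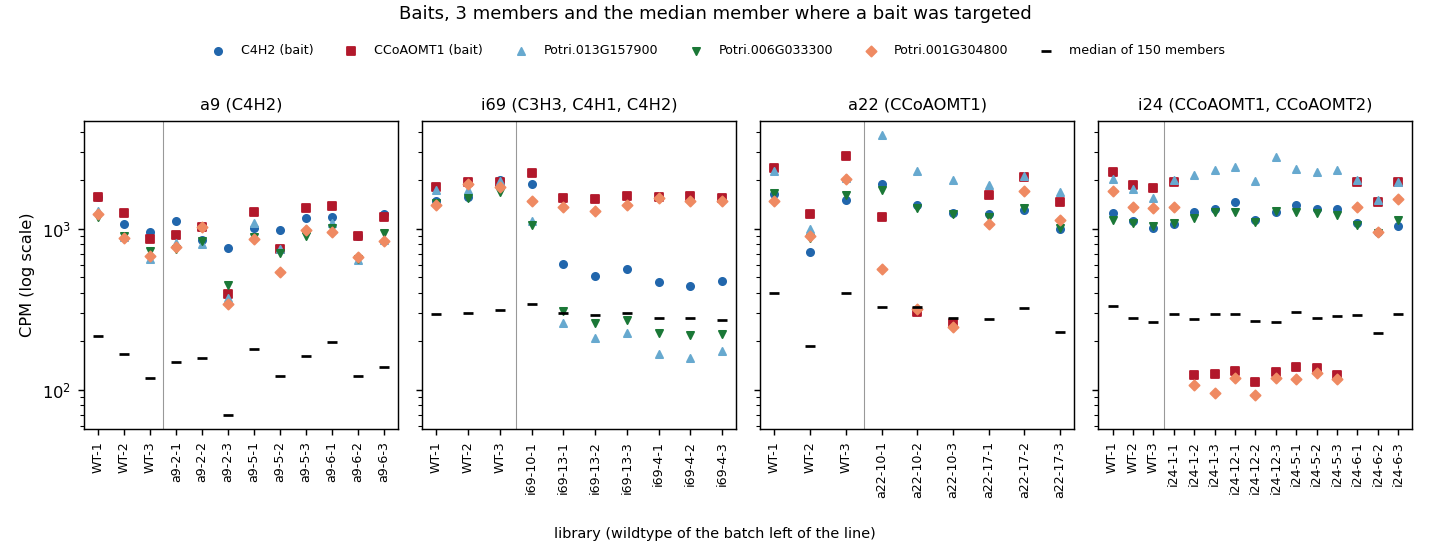
CPM (vertical, log scale) of both baits, of 3 members and of the median member in each library of a9, i69, a22 and i24, with the 3 wildtype libraries of the batch left of the line. The black dashes (set median) stay between 225 and 304 CPM in i24 and between 272 and 340 CPM in i69, while baits and single members fall.

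A like pattern was seen for C4H2 in i69, directed at C3H3, C4H1 and C4H2. C4H2 was at 442 to 607 CPM in the 6 pools of lines 4 and 13 and at 1908 CPM in the only pool of line 10, against 1495, 1583 and 2024 CPM in wildtype. The set median was 272 to 340 CPM, against 297, 301 and 315 CPM in wildtype, so the groups overlapped. In a22, directed at CCoAOMT1, the bait was at 260 and 303 CPM in 2 pools of line 10 and at 1181 CPM in the other. Line 17 of a22 had 1468 to 2094 CPM, within the 1231 to 2839 CPM of wildtype. The set median over the 6 a22 pools was 228 to 328 CPM, against 398, 188 and 397 CPM in wildtype.

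The libraries labelled a9, a knockdown of C4H2, did not show their target lowered beyond the spread. C4H2 was at 763 to 1232 CPM (median 1018, 9 pools) against 1586, 1071 and 960 CPM in wildtype. The log2 fold change was -0.21 (SE 0.21, adjusted p = 0.878, edgeR quasi-likelihood test with Benjamini-Hochberg adjustment over all genes). In i69 the change of C4H2 was -1.27 (SE 0.43, adjusted p = 0.111), and in i24 the change of CCoAOMT1 was -1.50 (SE 0.92, adjusted p = 0.303). Neither passed 0.05 with all pools of the construct included. In a22 CCoAOMT1 had -0.89 (SE 0.60, adjusted p = 0.756).

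Within these constructs the set and the bait parted. Over the 12 pools of i24 the set median correlated with C4H2 at 0.645 and with CCoAOMT1 at -0.255, and the baits correlated with each other at -0.839. In a22 the set had 0.708 with C4H2 and -0.263 with CCoAOMT1 over 6 pools. Among the 37 constructs with at least 6 libraries, the set's correlation with C4H2 exceeded 0.5 in 33 and with CCoAOMT1 in 31. No wildtype group is among the 37. The medians over the 37 were 0.823 and 0.928. All are descriptions from the values that chose the members.

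Only a few members left the rest of the set in constructs of this kind. They were chosen after their values were seen, as those farthest below the set. Potri.013G157900 was at 158 to 261 CPM in lines 4 and 13 of i69 and at 1125 CPM in line 10, against 1733, 1730 and 1978 CPM in wildtype. It was lower in every pool, and its log2 fold change was -2.46 (SE 0.57, adjusted p = 0.0388). Its distance from the median member was -2.37 in i69. In a10, directed at C4H1, also a target of i69, it was at 106 to 758 CPM against 1284, 886 and 650 CPM. That change of -1.52 (SE 0.44, adjusted p = 0.455) lay at -1.49 from the median member. In the other 43 constructs it lay between -0.30 and 0.47 of that median.

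Potri.006G033300 was low in i69 and in i20, directed at C3H3, the target that these constructs share. It was at 153 to 793 CPM over the 8 pools of i20 against 1441, 1563 and 1681 CPM in wildtype, with no overlap. Its change was -2.13 (SE 0.46, adjusted p = 0.0192) in i20 and -2.10 (SE 0.46, adjusted p = 0.0329) in i69. It lay at -1.83 from the median member in i20, was also far below it in i69, and lay at -0.28 or above in the other 43 constructs. The constructs i20 and i69 were compared with the same wildtype libraries, and with the pools of each line summed no member passed in either, Potri.013G157900 included.

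Potri.001G304800, the member nearest to CCoAOMT1, followed that bait pool by pool in i24. It was at 93.1 to 127 CPM in the same 8 pools and at 957 to 1526 CPM in the other 4, against 1709, 1365 and 1339 CPM in wildtype. In a22 it was at 245 and 318 CPM in the pools of line 10 that had the least CCoAOMT1 and at 560 CPM in the third. With all pools, its change was -1.53 (SE 0.85, adjusted p = 0.256) in i24 and -0.81 (SE 0.55, adjusted p = 0.758) in a22. In i20 it was lower by 0.91 on the log2 scale (SE 0.24, adjusted p = 0.0341). Whether the counting shared reads between such genes was not tested. Without gene names, it could not be checked whether a member is itself a target of these constructs, such as CCoAOMT2 in i24.

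Construct means had been subtracted before the members were chosen, so the mean difference between a construct and its wildtype was not itself used. The same low pools, such as those of line 3 of i15, still entered both the ranking and the comparison of their construct. The comparisons are therefore not independent of the choice of members. All 150 members passed the filter on low counts in each of the 45 comparisons. In 32 constructs no member passed an adjusted p of 0.05 by edgeR. An unadjusted p under 0.05 was held by 0 to 109 members, beside 1136 to 7897 of all genes tested. In those 32 the share of all genes that passed had a median of 0.0592% and was highest in a27, at 13.9%. In 42 constructs the median log2 fold change of the members was below that of all genes tested. The constructs of a batch share 3 wildtype libraries, so these are not independent counts. The members also vary together and are more abundant than most ranked genes. The part of level in their shares of calls was not tested. In 9 of the 13 constructs with calls every called member was lower, if a17 and i34 with 1 call each are included.

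**Figure D4:**
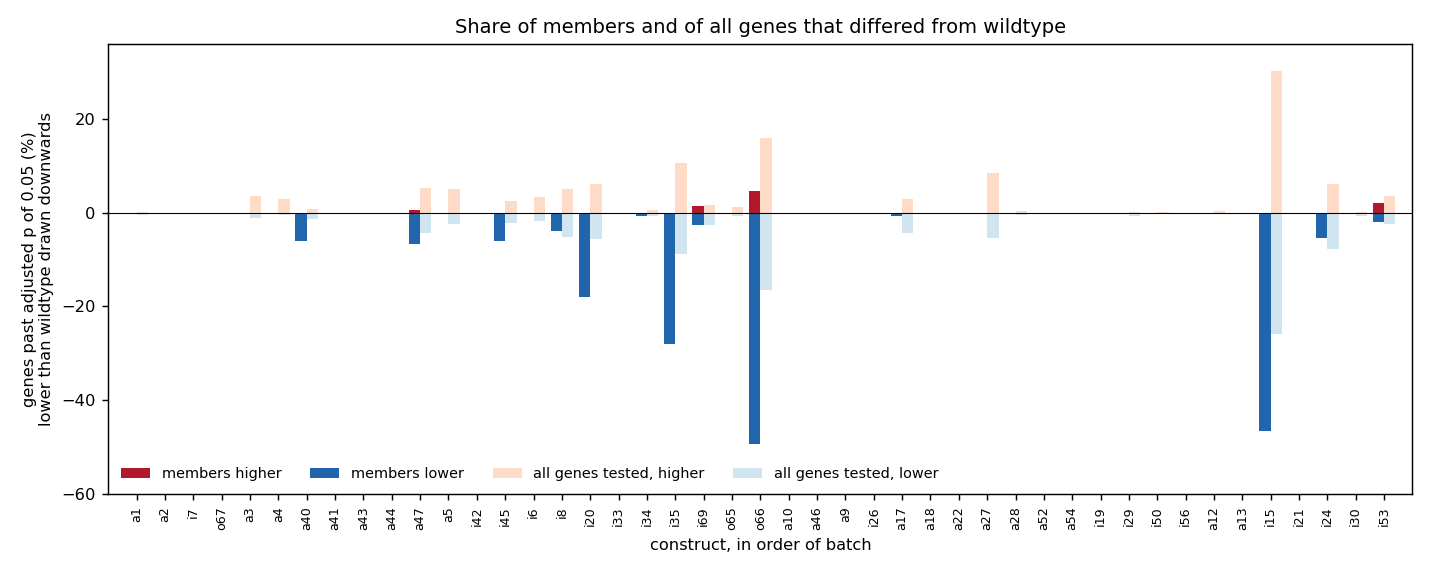
Percent of the 150 members (strong colours) and of all genes tested (pale colours) past an adjusted p of 0.05 against wildtype (vertical, higher drawn up and lower drawn down) for each of 45 constructs (horizontal, in order of batch). Lower members exceed 10% in i20, i35, o66 and i15, and higher members reach at most 4.67%, in o66.

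By edgeR on single pools, the most members were called in o66, which combines a knockdown of CAD1 with overexpression of CAD2. CAD1 and CAD2 are enzymes of the last step to the monolignols. In o65, which has the same targets and is described below, no member was called. Of the members, 74 were lower and 7 higher in o66, or 49.3 and 4.67%, beside 16.6% lower and 16% higher among all genes tested. The changes were small, with a median of -0.20 on the log2 scale. Potri.002G099200 was at 701 to 839 CPM (median 803, 8 pools) against 878, 954 and 1098 CPM in wildtype. No pool overlapped wildtype and the change was -0.32 (SE 0.08, adjusted p = 0.0127). Potri.014G114700 was at 2300 to 2892 CPM against 2642, 2951 and 2850 CPM, which overlapped (-0.14, SE 0.09, adjusted p = 0.245). With wildtype library 1, 2 or 3 left out in turn, 77, 62 and 71 members were called. Beside them, 8553 of 29102, 6975 of 28979 and 8349 of 28739 genes tested passed. With the pools of each line summed, 36 members were called in o66 and 72 in i15. Beside them, 3200 of 27781 and 14607 of 27224 genes passed, so in i15 the members had the smaller share. DESeq2 called 89 and 111 members, beside 10231 of 37097 and 17330 of 35996 genes. By both ways the count of members was higher in i15.

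In i15 the decrease was larger and more uneven. CCoAOMT1 was lower by 1.91 on the log2 scale (SE 0.66, adjusted p = 0.0341), and the members' median change was -1.93, and 70 members (46.7%) were lower and none higher, beside 25.9% lower and 30.3% higher among all genes. All 150 members were below wildtype. Potri.009G011100 was at 7.88 to 270 CPM (median 92.4, 6 pools) against 754, 555 and 538 CPM in wildtype, a change of -2.59 (SE 0.83, adjusted p = 0.0263). Potri.014G114700 was at 101 to 1911 CPM against 2517, 2192 and 2101 CPM, also without overlap, but its change of -1.60 (SE 0.72, adjusted p = 0.0831) did not pass. Without line 3, the lowest line, 122 members were called, beside 12417 of the 25869 genes tested. Without wildtype library 1, 2 or 3 there were 6, 9 and 10 called members. Beside them, 11171 of 27512, 10908 of 27265 and 10629 of 27226 genes passed in either direction, which are the larger shares.

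In i35, directed at CAD1 and CAD2, 42 members (28%) were lower and none higher, beside 8.81% and 10.7% of all genes. Potri.016G086400 was at 171 to 406 CPM (median 316, 9 pools) against 519, 566 and 532 CPM in wildtype, a change of -0.91 (SE 0.23, adjusted p = 0.0181). The set median was 102 to 130 CPM in line 7 and 226 to 288 CPM in lines 1 and 15, against 297 to 315 CPM in wildtype, so all 3 lines lay below. CCoAOMT1 was lower too, with a change of -0.82 (SE 0.17, adjusted p = 0.00675) beside -0.68 for the median member. In i20, 27 members (18%) were lower and none higher, beside 5.63% and 6.17% of all genes. Potri.004G009600 was at 238 to 445 CPM (median 342, 8 pools) against 472, 453 and 492.7 CPM, a change of -0.52 (SE 0.15, adjusted p = 0.0416). The change of CCoAOMT1 was -0.77 (SE 0.18, adjusted p = 0.0248) in i20 and that of the median member -0.30. Without wildtype library 1, 2 or 3 the counts were 10, 5 and 9 in i35 and 17, 0 and 10 in i20. In either direction, 3045 of 30646, 2581 of 30583 and 4324 of 30661 genes passed in i35, which are the larger shares. In i20, 1730 of 29037, 221 of 28948 and 1948 of 29009 genes passed. With the pools of each line summed, no member passed in either construct, though these fits hold 3 lines against 3 wildtype libraries. There 766 of 29952 genes passed in i35 and 72 of 29396 in i20. The 3 constructs o66, i35 and i20 share their wildtype libraries.

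CAD1 knockdown alone (i33) had 147 members below wildtype. By edgeR, 109 members were at an unadjusted p under 0.05, beside 4539 of the 28327 genes tested. None passed the adjusted threshold, where 0% of all genes passed. The members' median change was -0.35. Overexpression of CAD2 alone (o67, in another batch) had a median of -0.14 and no call. There 8 members were at an unadjusted p under 0.05, beside 4460 of the 24817 genes tested, which is the larger share. Construct o65, with the targets and wildtype libraries of o66, had 145 members below wildtype and a median of -0.32 over 7 pools. None was called, beside 0.663% lower and 1.28% higher among all genes. By edgeR, 45 members of o65 were at an unadjusted p under 0.05, beside 6202 of the 29428 genes tested. Whether these constructs differ from o66 was not tested.

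Fewer members were called elsewhere. Among monolignol constructs, 6 members were lower and none higher in i8, directed at 5 PAL genes, beside 5.18% lower and 4.98% higher among all genes. A single member was lower in a17 (4.34% of all genes lower and 3.03% higher) and in i34 (0.653% and 0.622%). Among regulator constructs, 9 were lower in a40, a LIM1 knockdown, beside 1.4% lower and 0.897% higher among all genes. In i45, directed at MYB090 and MYB167, 9 were lower, beside 2.23% and 2.5%. In a47, directed at MYB221, 10 were lower and 1 higher, beside 4.32% and 5.18%. The lower shares of i34, i69 and i53 were near their backgrounds, and those of i8 and a17 were below them. A total of 17 members were called in no construct and 38 in 3 or more. The same count was not made over all genes, so whether these numbers are unusual is not known. Potri.014G040300 was called in 6, each time lower.

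In the constructs aimed at the baits' families the tests called few members. In i24, 8 (5.33%) were lower and none higher, below the 7.84% and 6.09% of all genes, and the median change was -0.05. Potri.014G108300 was at 133 to 173 CPM (median 148, 12 pools) against 227, 193 and 192 CPM in wildtype, a change of -0.44 (SE 0.08, adjusted p = 0.00212). Potri.011G132600 changed by -0.43 (SE 0.11, adjusted p = 0.0167). Neither overlapped wildtype, and both differences were small beside the fall of CCoAOMT1. Without wildtype library 1, 2 or 3 there were 1, 7 and 3 calls, beside 1871 of 27021, 2791 of 27056 and 1783 of 26977 genes.

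In i69, 4 members were lower and 2 higher, beside 2.6% and 1.63% of all genes, with a median change of -0.10. The members that fell included Potri.007G014800, at 146 to 175 CPM (median 155, 7 pools) against 210, 214 and 249 CPM, and Potri.006G033300, given above. Those that rose were Potri.002G008800, at 382 to 427 CPM against 313, 296 and 332 CPM, and Potri.010G193100, at 840 to 1187 CPM against 577, 650 and 710 CPM. Their changes were -0.54 (SE 0.08, adjusted p = 0.00763) for Potri.007G014800, 0.36 (SE 0.07, adjusted p = 0.0195) for Potri.002G008800 and 0.62 (SE 0.14, adjusted p = 0.0315) for Potri.010G193100. Without wildtype library 1, 2 or 3 there were 2, 2 and 6 calls, beside 444 of 29126, 112 of 29015 and 2119 of 28765 genes. With the pools of each line summed there were 0, and 0 of the 27944 genes tested passed.

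No member was called in a9, a10, a22 or i21, by edgeR or by DESeq2, beside 0, 0.00992, 0.313 and 0% of all genes by edgeR. At an unadjusted p under 0.05 by edgeR were 0, 1, 0 and 0 members, beside 2143, 2280, 2042 and 1136 of all genes tested. In i21 the 8 pools spread from -4.05 to 0.97 around their mean, which left the median change of -0.47 within the spread.

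MYB regulators are transcription factors, some of which are known to act on secondary wall genes. In i53, directed at MYB002 and MYB021, 3 members were higher and 3 lower, beside 3.62% higher and 2.48% lower among all genes. Potri.007G014800, which was lower in i69, was here at 220 to 317 CPM (median 270, 9 pools) against 210, 189 and 188 CPM in wildtype, a change of 0.45 (SE 0.10, adjusted p = 0.0235). Potri.005G061600 was at 286 to 423 CPM against 616, 480 and 430 CPM, a change of -0.49 (SE 0.11, adjusted p = 0.0188). The median change of the set was -0.01. Without wildtype library 1, 2 or 3 there were 0, 1 and 2 calls, beside 506 of 27055, 701 of 27080 and 729 of 27050 genes. With the pools of each line summed there were 2, beside 872 of 27072 genes. In i56, directed at MYB003 and MYB020, 149 members were below wildtype with a median of -0.41. None passed by edgeR or DESeq2, beside 0.00744% of all genes by edgeR. By edgeR, 14 members were at an unadjusted p under 0.05, beside 3143 of the 26894 genes tested, which is the larger share.

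Wildtype trees also differed between planting batches, and these differences did not choose the members either. Of the 150 members, 119 passed an adjusted p of 0.05 in the edgeR test across the 6 batches, or 79.3%, beside 54.5% of the 27573 genes tested. The members vary together, so these are not 119 separate results, and the part of their high level in this share was not tested. The median range of batch means over the members was 1.10 log2, against 0.66 over ranked genes and a median range of 0.42 within a batch. Batch 2 was the highest for 129 members and batch 4 the lowest for 143.

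The set median in wildtype was 323, 414 and 416 CPM in batch 2 and 216, 167 and 119 CPM in batch 4, without overlap. Batches 1 and 3 had 220, 204 and 250 CPM and 297, 301 and 315 CPM. Batch 5 had 398, 188 and 397 CPM, so 1 of its wildtype libraries lay far under the others, and batch 6 had 331, 281 and 264 CPM. Potri.014G114700 had 2800, 3672 and 4579 CPM in batch 2 and 2319, 1733 and 1340 CPM in batch 4 (adjusted p = 0.0399 over the 6 batches). CCoAOMT1 differed between batches (adjusted p = 0.0254), with means of 2453 CPM in batch 2 and 1230 CPM in batch 4. C4H2 did not pass (adjusted p = 0.241), with batch means from 1128 to 1701 CPM. Without the wildtype libraries numbered 1, 2 or 3, 78, 62 and 10 members passed. Beside them, 8105 of 28248, 7564 of 27266 and 6137 of 27718 genes tested passed. Without number 3 the members had the smaller share. Season, growth and library preparation cannot be told apart within a batch.

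**Figure D5:**
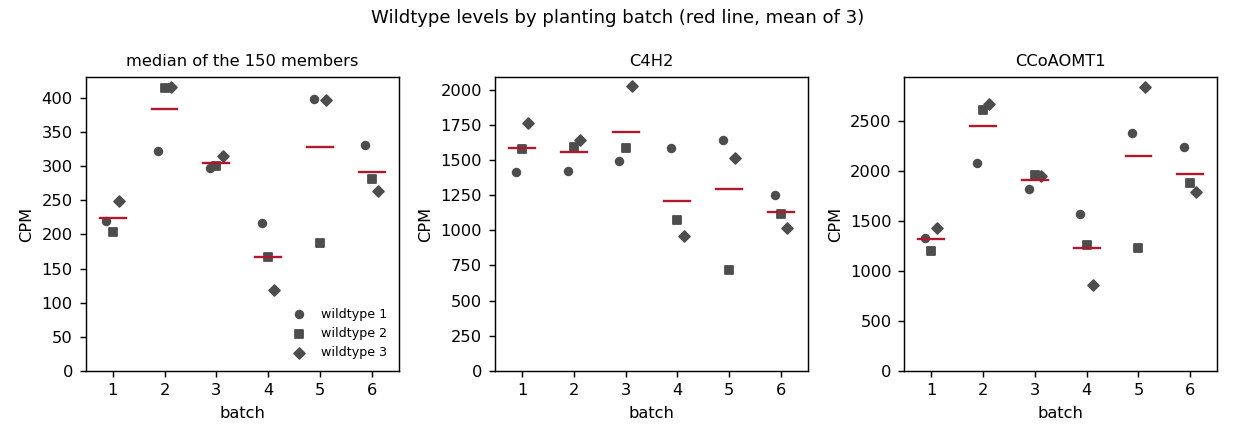
CPM (vertical) of the median member, C4H2 and CCoAOMT1 in the 3 wildtype libraries of each planting batch (horizontal), with red lines for their means. The set median is 323 to 416 CPM in batch 2 and 119 to 216 CPM in batch 4.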

How the data were processed

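The authors prepared TruSeq libraries, sequenced them on the Illumina GAIIx, aligned the reads by Bowtie and TopHat (P. trichocarpa genome, v3.0), and obtained counts with BedTools. Tool versions are not given in the sources used here. The deposited values are raw counts for 41334 genes in 378 libraries. A column of a12 with no pool number of its own in the labels was used as a library of a12.

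Correlations used edgeR's TMM log2 CPM. Constructs were tested against the 3 wildtype libraries grown in the same batch, and wildtype between batches, by edgeR 4.0.16 (R 4.3.3): filterByExpr, TMM, glmQLFit, glmQLFTest, 2-sided, Benjamini-Hochberg adjustment, threshold 0.05. SEs were derived from the fold change and F. DESeq2 1.42.0, other scalings, no filter, pools summed by line and omitted libraries were alternatives. The tests and the ranking were tested on simulated data. Figures used matplotlib 3.10.9.

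Members, lists and tests were chosen with earlier results of these data known. Named genes are the baits, members highest in correlation or level, those at the limit, and members with the smallest p in the constructs with all alternatives, of which at most 2 in each direction are printed. A reference table of 34621 genes (assembly v4.1) held none of the identifiers, so lists of pathway genes, markers of other cell types and promoter motifs could not be applied. Wildtype numbers did not pair libraries: deviations with the same number correlated between batches at a median of 0.016, -0.001 and 0.012. Totals were 2.12 to 93.5 M counts.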

Additional observations from a re-analysis of the deposited data

Results flagged for a closer look

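In 33 groups of 4 to 10 libraries, the set's deviation from the construct mean was searched for a library far from the nearest other by Dixon's criterion. It picked 8, all of them low, where chance gives about 1 in 20, or 1.65 of 33, for libraries that vary independently. Pools here are nested in lines, and the members were chosen by how these same deviations varied with the baits. That number therefore does not hold, and the 8 are given as a description. They were a43-13-1 at -2.51 on the log2 scale (2.12 M counts), i26-10-3 at -1.33, a10-14-3 at -1.10, a9-2-3 at -1.05, i30-1-3 at -0.77, o67-15-3 at -0.61, i42-5-2 at -0.56 and a17-10-3 at -0.50. Of these, o67-15-3, i42-5-2 and a43-13-1 held under 8 M counts, and the part of depth was not tested. In a10-14-3, Potri.013G157900 was at 106 CPM and C4H2 at 538 CPM, and in a9-2-3 the set median was 70.2 CPM, each the lowest value in its construct.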

How the results depend on the processing

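Spearman's in place of Pearson's correlation shared 94 of the 150 members, and line means in place of construct means 112. Other scalings in place of TMM, a lower level minimum and a smaller prior count shared 144 to 150. Against wildtype, DESeq2 called 16 members in i69, 11 in i53, 111 in i15, 64 in i20 and 76 in i35, against 6, 6, 70, 27 and 42 by edgeR. Beside them, DESeq2 called 3120 of 36840, 2529 of 36224, 17330 of 35996, 5647 of 37346 and 8010 of 37820 genes. With pools of a line summed, members called were 0 in i69, i20 and i35, 2 in i53 and 36 in o66. Without the filter i24 had 5, beside 3657 of 36255 genes. Leaving out 1 wildtype library gave 2 to 6 in i69, 1 to 7 in i24, 0 to 2 in i53, 6 to 10 in i15, 0 to 17 in i20, 5 to 10 in i35, 62 to 77 in o66 and 10 to 78 between wildtype batches. The counts over all genes in these fits are given with each result above. Without line 3, i15 had 122. In i15, i20, i24, i35, i53 and o66 the count fell whichever library was left out. In i69 it stayed at 6 without wildtype library 3. The cause was not tested. The counts in a9, a10, a22, i21 and i56 were 0 under every alternative run. With pool number as a replicate block, i53 had 12, i24 12 and i69 4, but the numbers do not pair the samples. Beside them, 1423 of 26601, 3950 of 26646 and 448 of 28512 genes passed. The line, library and construct omissions and the alternatives for i15, i20, i35 and o66 were chosen after the data were seen. With 3 wildtype libraries per batch, constructs whose lines spread widely (i19, i21 and a43) gave no calls even where the median change was -0.30, -0.47 and -0.61.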
